A study of Mus musculus with 6 samples.

Results

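TAF4A CUT&RUN peaks at histone genes comprised 54 of the 1131 unified peaks in wild-type muscle stem cells (MuSCs). A peak was a member if the gene symbol listed for it was that of a linker (H1) or core (H2A, H2B, H3, H4) histone gene, including the replacement variants. The peaks carried 21 symbols but 44 distinct gene IDs of the 900 listed for all peaks, because a symbol could stand for several genes. The symbol H4c1 alone was listed for 17 peaks of 11 H4 gene IDs, and H3-3a was listed for both H3f3a and H3f3b. Genes are therefore named here by gene ID with their names in GENCODE M21, and all 54 members had the same gene coordinates as in that annotation.

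TAF4A is a subunit of TFIID, the general transcription factor that assembles at core promoters. It was profiled to find the sites it occupies in MuSCs, the stem cells of skeletal muscle. The study assumes that its CUT&RUN mainly picked up TAF4A outside TFIID, because antibodies may not easily reach TAF4A within that complex. All 6 libraries came from cultured, activated and proliferating MuSCs of wild-type C57BL/6 mice, with no further treatment stated, 3 of them made with a TAF4A antibody and 3 with mouse IgG, an antibody without a target in the cells. In CUT&RUN, a nuclease tethered to the antibody releases the bound DNA for sequencing. The study calls the libraries biological replicates, but nothing in the labels says whether they came from separate animals or cultures, so the tests between libraries measure only the spread between these samples. IgG counts are not analysed here, and no value given is an enrichment over background. A list of peaks cannot be checked against expressed markers of MuSCs.

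Replication-dependent histone genes lie in clusters, have no introns, and are transcribed in S phase into mRNAs that end in a stem-loop instead of a poly(A) tail. Many H2A and H2B genes are arranged head to head and share the sequence between their starts. Variant histones such as H3.3, H2A.Z and H2A.X are mostly encoded by isolated genes outside the clusters and are also made outside S phase. CCAAT boxes, which the trimeric factor NF-Y binds, the octamer ATTTGCAT of H2B genes, TATA boxes and GC boxes are known elements of histone promoters.

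To show what the peaks cover, 6 stretches free of annotated exons were read from the RefSeq genome of GRCm38.p6. Capitals mark CCAAT, ATTTGCAT and GGGCGG on either strand, so that ATTGG and CCGCCC are CCAAT and GGGCGG on the other strand. TATAAA is in capitals on the strand of a gene, and as TTTATA where that gene points to the left. The first sequence separates Hist1h2ac, pointing left, from Hist1h2bc, pointing right, and holds the highest replication-dependent peak (chr13:23683960-23684198, plus strand). The second separates Hist1h2ae from Hist1h2bg and had no peak (chr13:23571221-23571395, plus strand). The others are the 150 bases upstream of the H4 genes Hist1h4c (chr13:23698459-23698608, minus strand), with CCAAT, and Hist1h4f (chr13:23551669-23551818, minus strand), without it, of the linker gene Hist1h1a (chr13:23763516-23763665, plus strand) and of the variant gene H2afx (chr9:44334544-44334693, plus strand).
Hist1h2ac-Hist1h2bc: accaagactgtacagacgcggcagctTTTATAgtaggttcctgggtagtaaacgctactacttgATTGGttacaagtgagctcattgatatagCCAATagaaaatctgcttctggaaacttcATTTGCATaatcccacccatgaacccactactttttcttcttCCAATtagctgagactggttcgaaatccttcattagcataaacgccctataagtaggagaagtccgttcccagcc
Hist1h2ae-Hist1h2bg: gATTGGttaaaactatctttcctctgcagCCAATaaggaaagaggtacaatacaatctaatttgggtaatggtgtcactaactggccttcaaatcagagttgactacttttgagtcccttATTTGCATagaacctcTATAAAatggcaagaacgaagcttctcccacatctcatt
Hist1h4c: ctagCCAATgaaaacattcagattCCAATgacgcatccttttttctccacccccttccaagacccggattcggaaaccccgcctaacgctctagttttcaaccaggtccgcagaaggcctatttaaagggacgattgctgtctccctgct
Hist1h4f: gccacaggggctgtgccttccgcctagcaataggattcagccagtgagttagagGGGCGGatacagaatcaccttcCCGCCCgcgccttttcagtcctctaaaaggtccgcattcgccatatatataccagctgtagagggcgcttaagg
Hist1h1a: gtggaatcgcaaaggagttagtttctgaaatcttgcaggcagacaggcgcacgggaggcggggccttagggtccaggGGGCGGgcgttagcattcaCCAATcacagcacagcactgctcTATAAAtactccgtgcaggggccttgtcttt
H2afx: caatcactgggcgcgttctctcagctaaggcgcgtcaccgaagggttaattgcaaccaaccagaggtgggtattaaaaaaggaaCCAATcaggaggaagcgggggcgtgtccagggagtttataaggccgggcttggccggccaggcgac

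Counts over all 1131 peaks summed to between 24826 and 47723 per TAF4A library, and the histone peaks held 3743, 1407 and 1632 of these counts in replicates 1, 2 and 3. Counts were scaled between libraries with the trimmed mean of M-values (TMM), and a normalised count is the count after this scaling. Relative to their mean, the scaled library sizes were 1.32, 0.724 and 0.957. The study lists longer reads for replicate 3 than for replicates 1 and 2. The effect of read length on the counts was not tested.

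TAF4A peaks were found at most replication-dependent histone genes. A peak centre lay within 1000 bases of the annotated start in 47 of 67 replication-dependent genes (70.2%, 95% Wilson interval 58.3 to 79.8), against 844 of 21938 protein-coding genes (3.85%). Neighbouring starts can share a peak, so genes within a cluster are not independent observations. Among core histones, which form the nucleosome, 46 of 61 genes had a peak (75.4%, 63.3 to 84.5). The shares were similar in the 4 core classes, with 12 of 18 H2A, 13 of 18 H2B, 10 of 12 H3 and 11 of 13 H4 genes. The peak counted for the H3 gene Hist2h3b lay nearer to the start of a neighbouring gene.

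**Figure D1:**
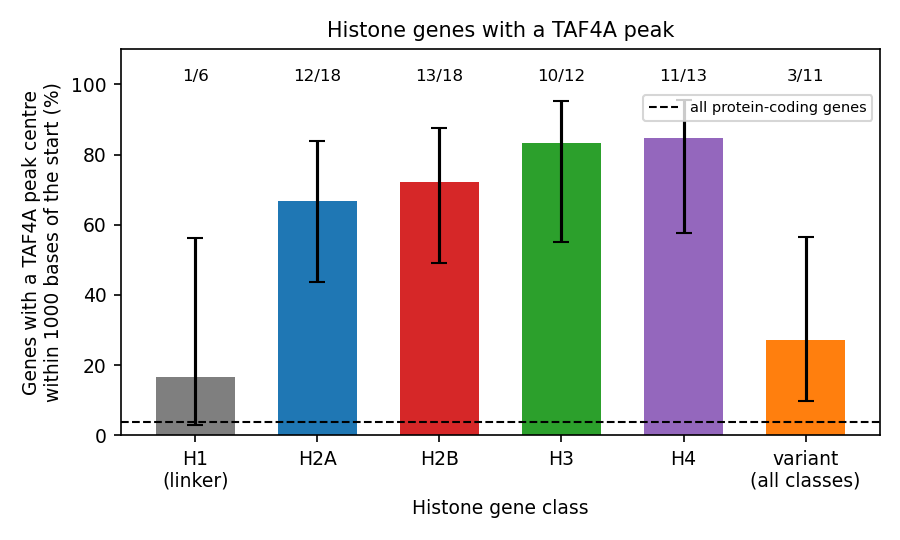
Share of histone genes with a TAF4A peak centred within 1000 bases of their start, in percent, for the 5 replication-dependent classes and for all variant genes together. Bars give the share, error bars the 95% Wilson interval, the numbers above the genes with a peak of all genes, and the dashed line the 3.85% of protein-coding genes with a peak. The core classes lie between 66.7% and 84.6%, and the linker and variant genes lie below them.

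Linker histone genes, whose products bind the DNA between nucleosomes, had fewer peaks. A peak was present at 1 of 6 linker genes (16.7%, 3.01 to 56.4) by the GENCODE start and at 2 of 6 (33.3%, 9.68 to 70.0) by the RefSeq mRNA start. The genes with a peak were Hist1h1a and Hist1h1d, while Hist1h1b, Hist1h1c, Hist1h1e and the testis gene Hist1h1t had none. The difference between linker and core genes was not tested and rests on 6 linker genes. The 3.01 to 56.4 interval lies below that of the core genes (63.3 to 84.5), whereas the 9.68 to 70.0 interval overlaps it.

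Some replication-dependent genes without a peak lay in sequence that is not unique in the genome. Reads that map to several places had been removed by the authors, and histone genes include near-identical copies. For each gene, the share of 36-base sequences that occur once in the genome was computed within 250 bases of the RefSeq start. At Hist1h2bq, Hist1h2ao, Hist1h2ap and Hist1h2br no such sequence was unique, nor was any of 61 bases, and no peak was found there. Of 10 genes with under 50% unique sequence, 2 had a peak, against 46 of 57 with 50% or more (80.7%, 68.7 to 88.9). Counts at the less unique genes, such as the H4 gene Hist1h4n, whose peak was 37.0% unique, are therefore uncertain. Of the 54 histone peaks, 43 consisted of unique sequence throughout.

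Among the replication-dependent genes with at least 50% unique sequence, 11 had no peak. The 3 testis genes Hist1h1t, Hist1h2aa and Hist1h2ba were among them. The other 8 were the linker genes Hist1h1b (100.0% unique), Hist1h1c (83.9%) and Hist1h1e (93.8%), the H2A genes Hist1h2ae (88.0%) and Hist2h2ab, the H2B genes Hist1h2bg (65.7%) and Hist3h2ba, and the H4 gene Hist1h4b (85.8%). Without the testis genes, 46 of 54 such genes had a peak (85.2%, 73.4 to 92.3).

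Replication-dependent peaks were found in every histone cluster but that of 2 testis genes, with genes grouped here by gaps of under 100000 bases. Of the 49 replication-dependent peaks, 42 lay on chromosome 13, 4 on chromosome 3, 2 on chromosome 6 and 1 on chromosome 11. The largest cluster, on chromosome 13 from 23531050 to 23764406, had 27 peaks and a peak at 22 of its 29 genes. The cluster from 21715763 to 21837530 had 12 peaks and a peak at 12 of 18 genes. All 5 genes between 22035164 and 22043676 shared 3 peaks, whereas the pair of testis genes from 23933773 to 23934851 had none. On chromosome 3, from 96219865 to 96270132, 6 of 10 genes had a peak. The isolated gene Hist4h4 on chromosome 6 had 2 peaks.

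The peaks sat just upstream of the histone starts. Of the 54 peaks, 43 were centred within 500 bases of a RefSeq histone mRNA start, at a median of -76 bases (quartiles -111 and -44.8, negative values being upstream). Of these, 39 (90.7%, 78.4 to 96.3) were centred upstream, a share that uses the nearest histone start. On the listed start within 1000 bases, 36 of 45 histone peaks (80.0%, 66.2 to 89.1) and 545 of 751 other peaks (72.6%, 69.3 to 75.6) were centred upstream, with overlapping intervals. By class of the listed gene, the median was -107 for H2B, -80 for H2A, -72 for H3 and -62.3 for H4. By the distance to the listed gene, 45 of 54 histone peaks (83.3%, 71.3 to 91.0) lay within 1000 bases, close to the 78.6% of other peaks with a gene.

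**Figure D2:**
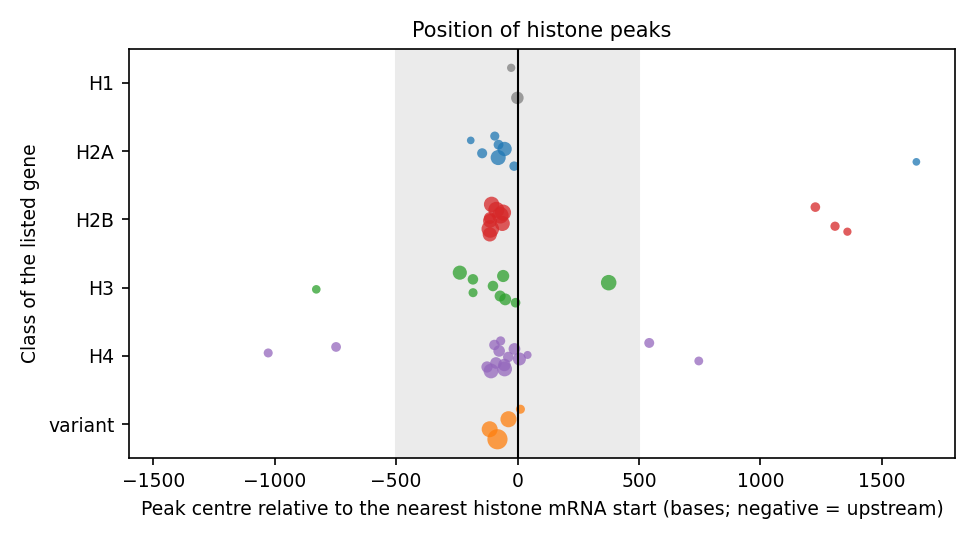
Position of histone peak centres relative to the nearest RefSeq histone mRNA start, in bases, by class of the listed gene. Each point is a peak, its area grows with the mean normalised count, and the grey band spans 500 bases to either side. Most points lie left of the start, and 2 peaks farther upstream are not drawn.

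Some listed distances pointed to a start other than the RefSeq mRNA start. The peak of H3f3b, which encodes H3.3, was listed as 3375 bases downstream, but its centre lay 83 bases upstream of the RefSeq start, at -83. That of Hist1h1d was listed at 1744 and lay at -26.5. A peak listed for Hist1h4d at 4498 lay at -126 from the H2B gene Hist1h2be. The remaining 11 peaks lay farther from a RefSeq start, the nearest at 542 (Hist4h4) and the farthest at -8981 (H2afz). All of them had unique sequence throughout. Among them, a peak listed for Hist1h2be lay at -127 from its listed start.

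Farther peaks had lower counts than start peaks. In each library the medians of log2 counts per base of the 43 start peaks and the 11 farther peaks were compared, with 1 added to each count. The start peaks were higher by 0.85, 0.49 and 1.00, or 0.78 ± 0.26 (SD, n = 3) on the log2 scale. The difference had the same sign in 3 of 3 libraries, and an exact two-sided sign-flip permutation test over 3 libraries cannot go below p = 0.25, so no p is given for this or the later differences per base. Mean normalised counts of the farther peaks ranged from 6.20 to 21.3.

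Head-to-head H2A and H2B genes shared peaks between their starts. There were 12 such pairs, with 164 to 281 bases between starts (median 210), and 8 of them had a single peak there. The peak centres lay near the middle, from -35.5 at Hist1h2ah/Hist1h2bk to 11 at Hist1h2ag/Hist1h2bj. Of the 8 peaks, 6 reached past both starts. The highest was at Hist1h2ac/Hist1h2bc, with 219, 46 and 72 counts in replicates 1, 2 and 3 (normalised 101.6 ± 56.1, SD, n = 3). Replicate 1 was far above the others there. The lowest was at Hist2h2ac/Hist2h2be on chromosome 3, with 26, 7 and 16 counts.

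The 4 pairs without a peak differed in how well they could be mapped. Hist1h2bq/Hist1h2ao and Hist1h2ap/Hist1h2br had no unique 36-base sequence. The testis pair Hist1h2ba/Hist1h2aa was 97.2% and 100.0% unique. Hist1h2ae/Hist1h2bg was 88.0% and 65.7% unique, and the sequence between its starts, printed above, held 2 CCAAT motifs, an octamer and a TATAAA, as the bound Hist1h2ac/Hist1h2bc sequence held 3 CCAAT motifs, an octamer and a TATAAA. The H2B and H3 genes Hist1h2bh and Hist1h3f, with starts 608 bases apart, had separate peaks. That of Hist1h2bh, with 103, 56 and 52 counts, was centred 63 bases upstream of its start. That of Hist1h3f was centred 375 bases downstream of its annotated start. The Hist1h3f peak held CCAAT and TATAAA, whereas the 200 bases upstream of the annotated start held no CCAAT. Whether transcription begins at that annotated start was not tested.

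**Figure D3:**
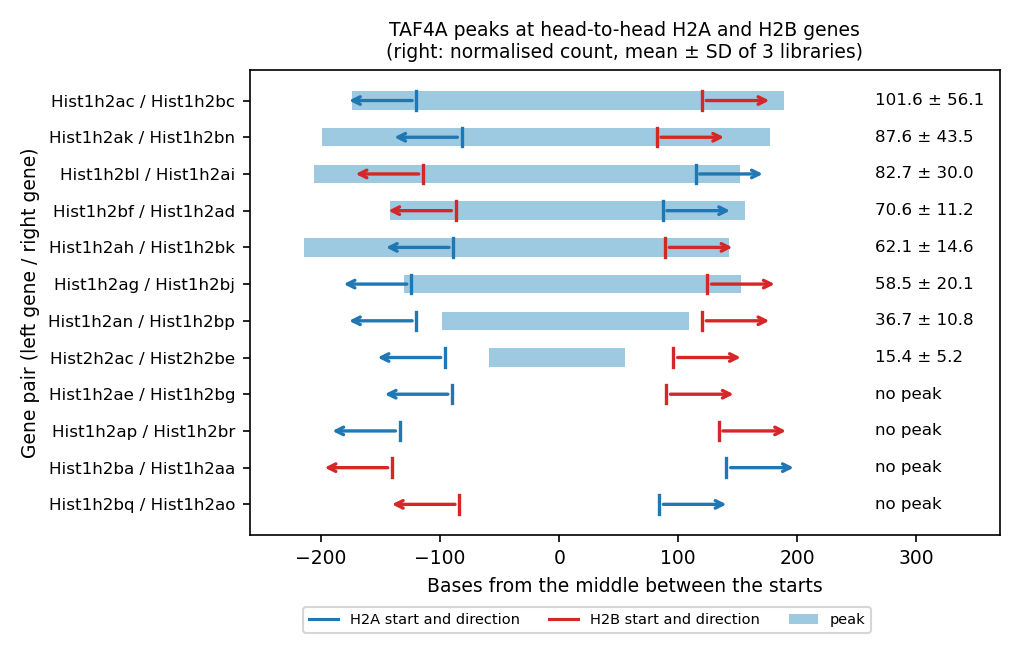
The 12 head-to-head H2A and H2B pairs, drawn to scale around the middle between their starts, with distance in bases. Ticks with arrows are the gene starts and directions, bars are the peaks, and the values give the normalised count (mean ± SD of 3 libraries). In 8 pairs a single peak lies between or over the starts, and 4 pairs have none.

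Promoter motifs differed by histone class. Motifs were searched by exact match, on both strands except TATAAA, in the RefSeq genome sequence around the mRNA start, and a match is not evidence of binding. Of 78 histone genes, 72 were in the RefSeq promoter table, each with the same sequence as in the genome. CCAAT was present in the 200 bases upstream of 40 of 48 replication-dependent genes with a peak at the RefSeq start (83.3%, 70.4 to 91.3). The share was 15 of 19 among those without a peak (79.0%, 56.7 to 91.5), 31.2% of 21000 protein-coding promoters, and 50.4% of the 820 of these with a peak. The intervals of replication-dependent genes with and without a peak overlap.

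All H2A (12 of 12) and H2B (13 of 13) promoters with a peak held CCAAT, as did 9 of 10 H3 and 4 of 11 H4 promoters. The H3 promoter without it was that of Hist1h3f, whose peak held CCAAT downstream of the annotated start. With or without a peak, 18 of 18 H2A and 18 of 18 H2B promoters held CCAAT. Genes of a head-to-head pair are scored on overlapping sequence, so their promoters are not independent observations in these CCAAT shares. At least 3 CCAAT were present in 12 of 13 H2B promoters with a peak and 16 of 18 H2B promoters in all. The shares were 2.42% of all promoters and 11.6% of all promoters with a peak. Both linker promoters with a peak held a single CCAAT, and TATAAA at 40 to 20 bases upstream. The GC box GGGCGG, searched from 250 bases upstream to 50 downstream, was present in 9 of 11 H4, 5 of 12 H2A, 2 of 13 H2B and 0 of 10 H3 promoters with a peak, against 46.7% of all promoters and 70.7% of all promoters with a peak. H4 promoters thus mostly lacked CCAAT and held GGGCGG, and 11 of 13 H4 genes had a peak.

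The octamer ATTTGCAT was present only at H2A and H2B genes among the replication-dependent genes with a peak, in 5 of 12 and 7 of 13 promoters, against 1.70% of all promoters. An H2A gene in a pair is scored on the same sequence as its H2B partner. TATAAA at 40 to 20 bases upstream was found in 8 of 48 replication-dependent promoters with a peak (16.7%, 8.70 to 29.6), in 5 of 19 without a peak (26.3%, 11.8 to 48.8) and in 2.90% of all promoters. AAACACA, the box of H1 genes, was present in 5 of 6 linker promoters, of which 1 had a peak, and in 6.21% of all promoters.

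Within the peaks themselves, CCAAT was present in 38 of 54 histone peaks (70.4%) and 45.2% of all peaks. TATAAA, searched on both strands within peaks, was present in 23 (42.6%) against 10.8%, and ATTTGCAT in 9 (16.7%) against 1.95%. Histone peaks were wider than other peaks, with a median of 225 against 159 bases, and had a lower GC content, with a median of 47.1% against 59.8%. The part of width and base composition in these shares was not tested. Among the 39 replication-dependent start peaks, 31 held CCAAT and 8 did not. Counts per base were higher with CCAAT by 0.38, 0.59 and 0.35 in the 3 libraries (0.44 ± 0.13 on the log2 scale, SD, n = 3). Of the 8 peaks without CCAAT, 7 were listed for H4 genes and 3 were of unique sequence throughout, against 5 and 26 of the 31 with CCAAT, so that the motif, the histone class and mappability cannot be told apart.

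Histone peaks did not stand apart in height once their width was considered. The median normalised count was 31.0 in histone peaks and 19.7 in other peaks, but per 100 bases it was 14.1 and 13.0. The difference of median log2 counts per base, histone minus other peaks, was 0.53 in replicate 1, -0.03 in replicate 2 and -0.27 in replicate 3 (0.08 ± 0.41, SD, n = 3). It was thus smaller than the spread between libraries.

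The highest histone peak was that of a variant gene. The peak of H3f3b had 227, 89 and 119 counts (normalised 139.8 ± 28.0, SD, n = 3), the highest of all 54 and above 98.4% of the peaks in the series. H2afx, which encodes the variant H2A.X, had 123, 56 and 71 counts (81.6 ± 10.2). Those 3 libraries did not differ beyond counting noise (chi-square test, Benjamini-Hochberg adjusted p = 0.417).

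H2afz, which encodes H2A.Z of promoter nucleosomes, had 149, 45 and 71 counts at its start (83.1 ± 26.6). Its other peak, at -8981, had 14, 9 and 6. H3f3a, the other H3.3 gene, had 9, 16 and 15 counts (14.9 ± 7.67) and, unlike the other start peaks of variants, was lowest in replicate 1. Per 100 bases of peak, the mean normalised count was 32.2 at H3f3b and 11.2 at H3f3a, and H3f3b had the higher counts in every library. Variant genes without a peak were H1f0, H1fx, H2afv, H2afj, H2afy, H2afy2 and Cenpa, so that 3 of 11 had a peak by the GENCODE start (27.3%, 9.75 to 56.6) and 4 of 11 by the RefSeq start.

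Replication-dependent peaks were lower than variant peaks per base, by 0.74, 0.59 and 1.01 in replicates 1, 2 and 3 (-0.78 ± 0.21 on the log2 scale, SD, n = 3). This held in 3 of 3 libraries, but rests on 5 variant peaks. Linker peaks were Hist1h1a, with 75, 27 and 35 counts (43.6 ± 11.5), and Hist1h1d, with 22, 1 and 11 (9.85 ± 7.78). Linker minus core peaks per base gave -0.15, -1.30 and -0.05 (-0.50 ± 0.69), a difference within the spread between libraries.

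H2B peaks were the highest core peaks, with higher counts per base than the other core peaks by 0.60, 0.61 and 0.39 (0.53 ± 0.12 on the log2 scale, SD, n = 3). The median normalised count per 100 bases was 22.6 for 12 H2B, 14.6 for 8 H2A, 14.8 for 10 H3 and 12.9 for 17 H4 peaks. A shared H2A and H2B peak is listed for a single gene of the pair, in 5 of 8 pairs the H2B gene. By normalised count per peak, the highest H2B peaks were Hist1h2bc, described above, and Hist1h2bn, with 181, 50 and 54 counts (87.6 ± 43.5), both highest in replicate 1. The lowest was another Hist1h2bc peak 1358 bases downstream, with 14, 9 and 5.

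The highest H2A peaks were Hist1h2ad, with 105, 42 and 71 counts (70.6 ± 11.2), and Hist1h2ah, with 102, 35 and 58 (62.1 ± 14.6). Both are shared with an H2B gene. Hist2h2aa2, with 15, 3 and 2 counts, was lowest. Among H3 peaks, Hist1h3f had 117, 53 and 63 counts (75.9 ± 11.7) and Hist1h3h had 110, 35 and 47 (60.3 ± 20.0). The lowest was a Hist1h3e peak at -829 bases, with 15, 9 and 11. Among H4 peaks, Hist1h4c had 88, 59 and 52 (67.5 ± 13.6) and Hist1h4a had 131, 40 and 45 (67.2 ± 28.1). A peak at -2898 bases from Hist1h4c, with 17, 5 and 3, was lowest.

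**Figure D4:**
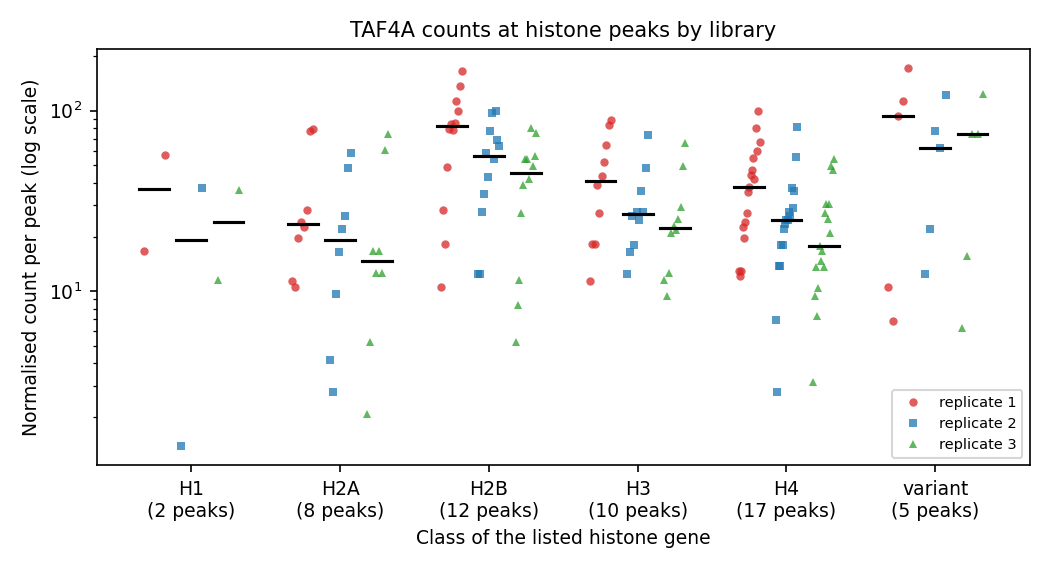
Normalised counts of the 54 histone peaks on a log scale, by class of the listed gene and TAF4A library. Each point is a peak and black lines are medians. H2B and variant peaks have the highest medians in each of the 3 libraries, and the median of replicate 1 is the highest in every class.

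Histone peaks were higher in replicate 1 than in the other libraries. They held 7.84% of the counts over peaks in replicate 1, 5.67% in replicate 2 and 5.08% in replicate 3. After scaling, 44 of 54 histone peaks (81.5%) were highest in replicate 1, against 364 of 1077 other peaks (33.8%). The median log2 ratio of replicate 1 to the mean of replicates 2 and 3 was 0.62 for histone peaks and -0.04 for other peaks. The groups of libraries were not a contrast of the study, so this ratio has no test. Peaks were called in these same libraries, so their counts are not independent of the choice of regions.

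Base composition and level were set beside this ratio. Among other peaks with under 50% GC, 45 of 114 (39.5%) were highest in replicate 1, against 29 of 35 histone peaks (82.9%) in that range. Among peaks with a mean normalised count of 40 or more, 125 of 239 other peaks (52.3%) and 19 of 21 histone peaks (90.5%) were. Between 20 and 40 these shares were 26.5% and 92.9%, and under 20 they were 29.6% and 63.2%. The ranges were chosen after the values were seen.

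**Figure D5:**
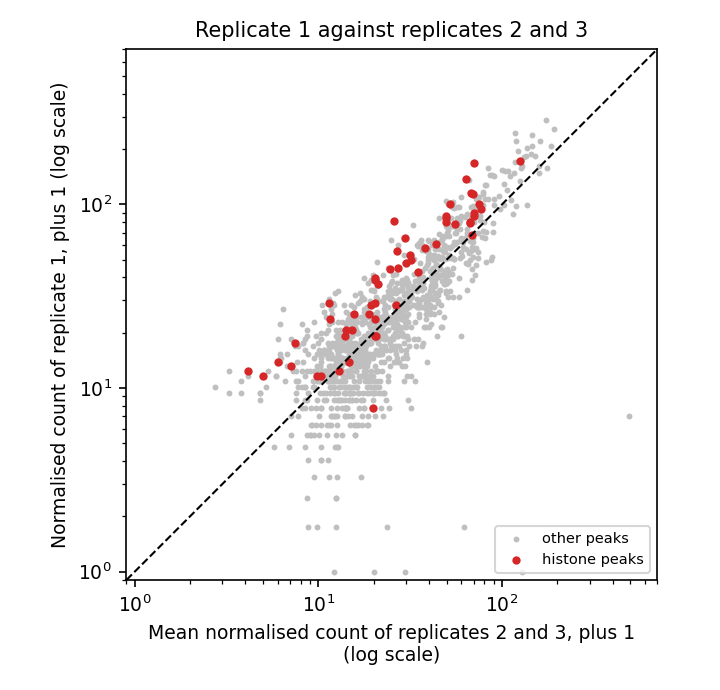
Normalised count of replicate 1 against the mean of replicates 2 and 3, both plus 1 and on log scales, for the 54 histone peaks (red) and the 1077 other peaks (grey). The dashed line marks equal values, and most red points lie above it.

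A chi-square test across all peaks asked which peaks differed between libraries beyond counting noise. These peaks had been called in the same libraries and unified. A region could thus enter the list through a high count in 1 library, and that count was then tested. The test called 19 of 54 histone peaks (35.2%, 23.8 to 48.5) at a Benjamini-Hochberg adjusted p under 0.05, against 17.9% of all peaks. The share rises with the level of a peak. At a mean normalised count of 40 or more it was 13 of 21 histone peaks (61.9%) and 79 of 239 other peaks (33.1%), and under 20 it was 2 of 19 and 60 of 544. Of the 19 peaks, 18 were highest in replicate 1. The exception was the H2B gene Hist2h2bb, with 113, 70 and 40 counts, highest in replicate 2 after scaling. Without replicate 1, 2 histone peaks and 31 of all peaks were called, and without replicate 3, 10 and 86.

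The smallest p-values were those of Hist1h2bc (Benjamini-Hochberg adjusted p = 9.48e-12), Hist1h4d (4.7e-09), Hist1h2bn (1.7e-08), Hist1h4a (1.47e-04) and Hist1h3i (6.08e-04). Hist1h4d had 106, 21 and 20 counts and Hist1h3i had 85, 20 and 28, with replicate 1 above both others in each. Called peaks listed for Hist1h2bl, Hist1h2bn, Hist1h2bj and Hist1h2bc were each shared with an H2A gene. The calls thus do not separate H2A from H2B promoters. The called Hist1h2be peak lay 1307 bases downstream of the start of the linker gene Hist1h1e. By class of the listed gene, 8 of 12 H2B, 4 of 10 H3, 4 of 17 H4, 0 of 8 H2A, 1 of 2 linker and 2 of 5 variant peaks were called. The variant peaks were those at the starts of H3f3b (adjusted p = 0.0203) and H2afz (0.00341). The biological coefficient of variation, the spread between libraries beyond counting noise, was 0.326 at histone peaks and 0.283 at other peaks. Without replicate 1 it was 0.183 and 0.231.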

How the data were processed

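CUT&RUN reads were trimmed by the authors with Trimmomatic 0.39 and aligned to mm10 with STAR 2.7.9a. Duplicate (Picard, 2.21.7 in the submitters' processing notes), spliced and multi-mapping reads were removed, peaks were called with MACS against IgG and unified, and featureCounts gave the reads in each. The deposited values are these counts per unified peak and TAF4A library. The methods also name a DESeq2 normalisation, but the values are whole numbers with different totals and were treated as raw counts.

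Counts were scaled by TMM (edgeR 4.0.16, R 4.3.3), and each peak was tested by chi-square against the scaled library sizes with Benjamini-Hochberg adjustment over all 1131 peaks. The remaining steps were run in Python 3.11.15 (pandas 2.3.3, numpy 2.4.6, matplotlib 3.10.9, numba 0.67.0 and scipy 1.17.1). The steps were tested on simulated data. GENCODE M21 and RefSeq starts on GRCm38 were used, and peak starts were read as counted from 0. Log2 values used a pseudocount of 1. Intervals and tests of single counts cover counting error only.

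Members, gene lists and motifs were chosen with earlier results of these data known. Named with values were every linker and variant peak, the 2 highest and the lowest peak of each core class, and the 5 peaks with the smallest p. Other peaks were named after their values were seen. Alternatives were DESeq2 1.42.0 size factors, no scaling, other thresholds and motifs, 20000 multinomial draws per peak in place of the chi-square distribution, and leaving out each library.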

Additional observations from a re-analysis of the deposited data

How the results depend on the processing

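Of 50 recomputed values, 38 kept their call and direction or moved by less than the spread, and the following did not. The 19 histone peaks that differed between libraries became 45 with no scaling (517 of all peaks, against 203) and 12 at an adjusted p under 0.01 (110 of all peaks). Leaving out each library in turn gave 2 to 19, the lowest without replicate 1. The log2 difference of histone against other peaks, 0.08 per base, was 0.55 per peak, and -0.15 to 0.25 when each library was left out. Replication-dependent against variant peaks gave -0.78 per base and -1.35 per peak (-0.88 to -0.67 when each library was left out). Linker against core peaks, -0.50, turned to 0.038 with peaks of at least 10 counts in every library, which leaves a single linker peak, and ranged from -0.72 to -0.10 over the left-out libraries. The share of histone peaks near the listed start rose from 83.3% to 92.7% with at least 10 counts. The share of replication-dependent genes with a peak, 70.2%, was 80.7% where at least 50% of the sequence was unique, a setting chosen after seeing the data, as were the RefSeq starts (71.6%). The CCAAT share, 83.3%, was 54.2% for the longer motif CCAATCA. The biological coefficient of variation, 0.326, was 0.564 with no scaling and 0.183 to 0.392 over the left-out libraries. No paired analysis was possible because the same-numbered IgG libraries have no counts analysed here. The cause of these changes was not tested. Low counts in replicate 2 limit the precision at the weaker peaks.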

Other observations

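Some genes that act on histone genes or histones had a peak of their own. Of 49 such genes, listed with earlier results known, 6 had a listed peak (12.2%), against 832 of 21938 protein-coding genes (3.79%). These were 3 of 17 genes for the transcription of histone genes, 0 of 14 for the processing and turnover of histone mRNA, and 3 of 18 histone chaperones. Anp32e, a chaperone of H2A.Z, had 206, 117 and 181 counts in replicates 1, 2 and 3 (normalised 169.0 ± 17.7, SD, n = 3), more per peak than H3f3b, the highest histone peak. E2f3, an E2F transcription factor of the cell cycle, had 145, 71 and 88 counts (100.0 ± 9.14), and Nfya, the DNA-binding subunit of NF-Y, had 55, 37 and 48 (47.7 ± 5.18). Gapdh, a glycolytic enzyme also found in the OCA-S coactivator of H2B transcription, and the chaperone Nasp, which binds H3 and H4, had 2 peaks each, and the chaperone subunit Rbbp4 had 1. The chi-square test called 0 of these 8 peaks as different between libraries, against 17.9% of all peaks (smallest Benjamini-Hochberg adjusted p = 0.243). Npat, the coactivator of replication-dependent histone genes, and Slbp, which binds the stem-loop of their mRNAs, had no listed peak.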
